A study of Homo sapiens with 9 samples.

Results

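The 53 genes described here encode extracellular matrix proteins, the receptors that hold cells to that matrix, the junctions that hold cells to each other, and parts of the TGF-beta pathway. They were taken by symbol from the table of 27800 gene symbols, and all 53 had a row. RNA was sequenced from Huh7, an established human hepatocellular carcinoma line, as total RNA from 9 libraries. The groups were 3 libraries of cells given 0.5 uM JQ1 for 48 h, 3 of cells given 5 uM FIDAS-5 for 48 h, and 3 of cells given vehicle, whose composition and exposure time the labels do not state. All cells were grown in DMEM with serum. FIDAS-5 inhibits MAT2A, the enzyme that makes the methyl donor S-adenosylmethionine in proliferating liver cells, and JQ1 displaces BET bromodomain proteins from acetylated chromatin. One cell line and a single dose of each compound were studied.

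Many epithelial cells rest on laminins, nidogen, perlecan and type IV and XVIII collagens, which they bind through integrins and cell surface proteoglycans. They are joined by cadherins at adherens junctions, by claudins and occludin at tight junctions, and by connexins at gap junctions. TGF-beta is secreted in a latent form, is released by proteins such as thrombospondin, and signals through a pair of receptor kinases to SMAD proteins, which raise matrix genes and the inhibitor SMAD7. Loss of epithelial junctions with gain of N-cadherin, vimentin and fibronectin is the textbook picture of the epithelial to mesenchymal transition.

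Promoter windows are shown for 5 members because these members changed with at least 1 compound and the windows differ in base composition. RefSeq (GRCh38.p14) held a window for 41 of the 53 members, running from 250 bases before the gene start to 50 after it. TGFBR1 is an exception: its window, chr9:99104863-99105162, lies after the gene start at 99103647, and it is counted with the others. The windows are printed 5′ to 3′ on the strand of the gene. FN1 lies on chr2:215436019-215436318 (minus strand), COL18A1 on chr21:45404915-45405214 (plus), SPP1 on chr4:87975464-87975763 (plus), GJA1 on chr6:121435396-121435695 (plus) and CLDN2 on chrX:106899914-106900213 (plus). Capitals mark matches on either strand to 4 short motifs, and neighbouring or overlapping matches run together. The GC box was searched as GGGCGG. The letters CCAAT were searched for the CCAAT box. The AP-1 motif was searched as TGANTCA, where N is any base. The E-box bound by ZEB and SNAIL proteins was searched as CAGGTG. The letters TATAAA of the TATA box were searched too and had no match in these 5 windows.
FN1: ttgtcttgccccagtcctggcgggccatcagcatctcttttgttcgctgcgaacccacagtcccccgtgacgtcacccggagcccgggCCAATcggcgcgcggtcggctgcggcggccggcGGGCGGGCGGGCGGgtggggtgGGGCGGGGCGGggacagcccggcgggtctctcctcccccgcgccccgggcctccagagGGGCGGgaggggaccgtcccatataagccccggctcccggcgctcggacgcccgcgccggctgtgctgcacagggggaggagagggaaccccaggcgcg
COL18A1: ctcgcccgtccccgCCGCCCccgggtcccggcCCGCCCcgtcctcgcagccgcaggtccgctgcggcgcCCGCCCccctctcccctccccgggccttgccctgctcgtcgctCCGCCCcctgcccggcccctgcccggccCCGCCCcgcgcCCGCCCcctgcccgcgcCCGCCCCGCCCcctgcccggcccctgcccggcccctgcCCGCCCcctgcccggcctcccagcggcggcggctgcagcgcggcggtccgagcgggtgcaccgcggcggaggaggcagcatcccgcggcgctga
SPP1: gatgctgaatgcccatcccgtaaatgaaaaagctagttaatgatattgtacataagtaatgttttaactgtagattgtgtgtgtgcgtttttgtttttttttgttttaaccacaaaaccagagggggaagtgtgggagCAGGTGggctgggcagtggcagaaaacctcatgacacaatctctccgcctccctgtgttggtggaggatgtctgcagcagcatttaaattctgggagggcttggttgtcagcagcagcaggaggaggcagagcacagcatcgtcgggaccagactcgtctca
GJA1: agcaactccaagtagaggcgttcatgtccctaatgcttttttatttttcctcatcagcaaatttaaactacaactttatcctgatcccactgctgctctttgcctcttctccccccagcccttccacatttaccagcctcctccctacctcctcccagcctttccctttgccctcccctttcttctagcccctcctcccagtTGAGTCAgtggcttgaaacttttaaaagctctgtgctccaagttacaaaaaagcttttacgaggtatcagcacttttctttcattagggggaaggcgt
CLDN2: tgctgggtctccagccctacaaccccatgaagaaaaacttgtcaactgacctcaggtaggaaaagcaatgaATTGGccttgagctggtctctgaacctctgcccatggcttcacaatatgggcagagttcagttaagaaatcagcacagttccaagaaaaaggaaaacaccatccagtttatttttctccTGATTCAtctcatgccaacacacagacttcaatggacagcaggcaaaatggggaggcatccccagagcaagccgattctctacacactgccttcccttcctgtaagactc

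The FN1 window held 6 GC boxes and the COL18A1 window 9, while the SPP1, GJA1 and CLDN2 windows held none. The AP-1 letters were found in the windows of 3 of the 41 members, GJA1, CLDN2 and ITGA5, and in 7.71% of all 35114 RefSeq windows. GC boxes were found in 30 of the 41 members and in 45% of all windows, CCAAT in 11 of 41 and 34.6%, the E-box in 9 of 41 and 20.6%, and the TATA box letters in 2 of 41 and 11.5%. The median GC content of a window was 69.3% over the members and 58.7% over all windows. No filter for gene type or expression was applied to all windows, so these shares and medians do not compare the members with genes of their kind. The motifs and the printed windows were chosen after values of these data had been seen, and a match describes letters, not binding.

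Deposited values were TPM, a gene's share of the transcripts in a library, scaled for transcript length and to the same total in every library. TPM keeps no read depth, so the counting error and the detection limit are unknown. In vehicle libraries 31 members averaged at least 5 TPM, 12 lay between 1 and 5 TPM, and 10 were under 1 TPM. FN1, CLDN1 and GPC3 averaged over 100 TPM there. The summed TPM of the 53 members was 4989, 4594 and 3751 in JQ1 libraries, 2349, 1648 and 1817 in FIDAS-5 libraries, and 1553, 1202 and 1276 in vehicle libraries. The 3 groups did not overlap in this sum, and the 3 most abundant members of each library made up 76.7 to 79% of it in JQ1 libraries.

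Differences were tested with limma on log2(TPM + 1) over all 13573 genes that reached 1 TPM in at least 3 libraries, and a gene was called where its p, adjusted by the Benjamini-Hochberg method over all of them, lay under 0.05. Of the 53 members 43 could be tested. A member that passed this filter only through a group where it is high had to differ, so the counts below describe the tested members. FIDAS-5 against vehicle called 20.2% of all tested genes, and 13 of the 43 members, all higher; the background share called higher was 12.6%, and that called lower 7.6%. Another 4 members were lower at an unadjusted p under 0.05, and limma called 3 members lower once the GC trend was removed. JQ1 against vehicle called 38.5% of all tested genes, and 22 of 43 members, of which 15 were higher (background 19%) and 7 lower (background 19.4%). Counts by role given further below are small and were not tested against these shares. The median difference over the 43 members on the log2 scale was 0.47 with FIDAS-5 and 0.37 with JQ1, beside -0.02 and -0.01 over all tested genes. The members were chosen with earlier results of these data known. Their counts and medians beside all tested genes are therefore a description and cannot test matrix genes as a class. The FIDAS-5 median was 0.20 without vehicle replicate 2 and 0.30 without FIDAS-5 replicate 1, and the JQ1 median was 0.58 without JQ1 replicate 3 and 0.24 without JQ1 replicate 1. All FIDAS-5 libraries lay above all vehicle libraries in 18 members and below them in 6, beside 20.9% and 18.4% of all tested genes (39.3% in either direction). All JQ1 libraries lay above vehicle in 19 members and below in 7, beside 24.5% and 26.2% (50.7% in either direction). Both comparisons share the same 3 vehicle libraries. The labels do not state that libraries of a group are separate cultures, so the p-values measure the spread between libraries, which may be technical.

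**Figure D1:**
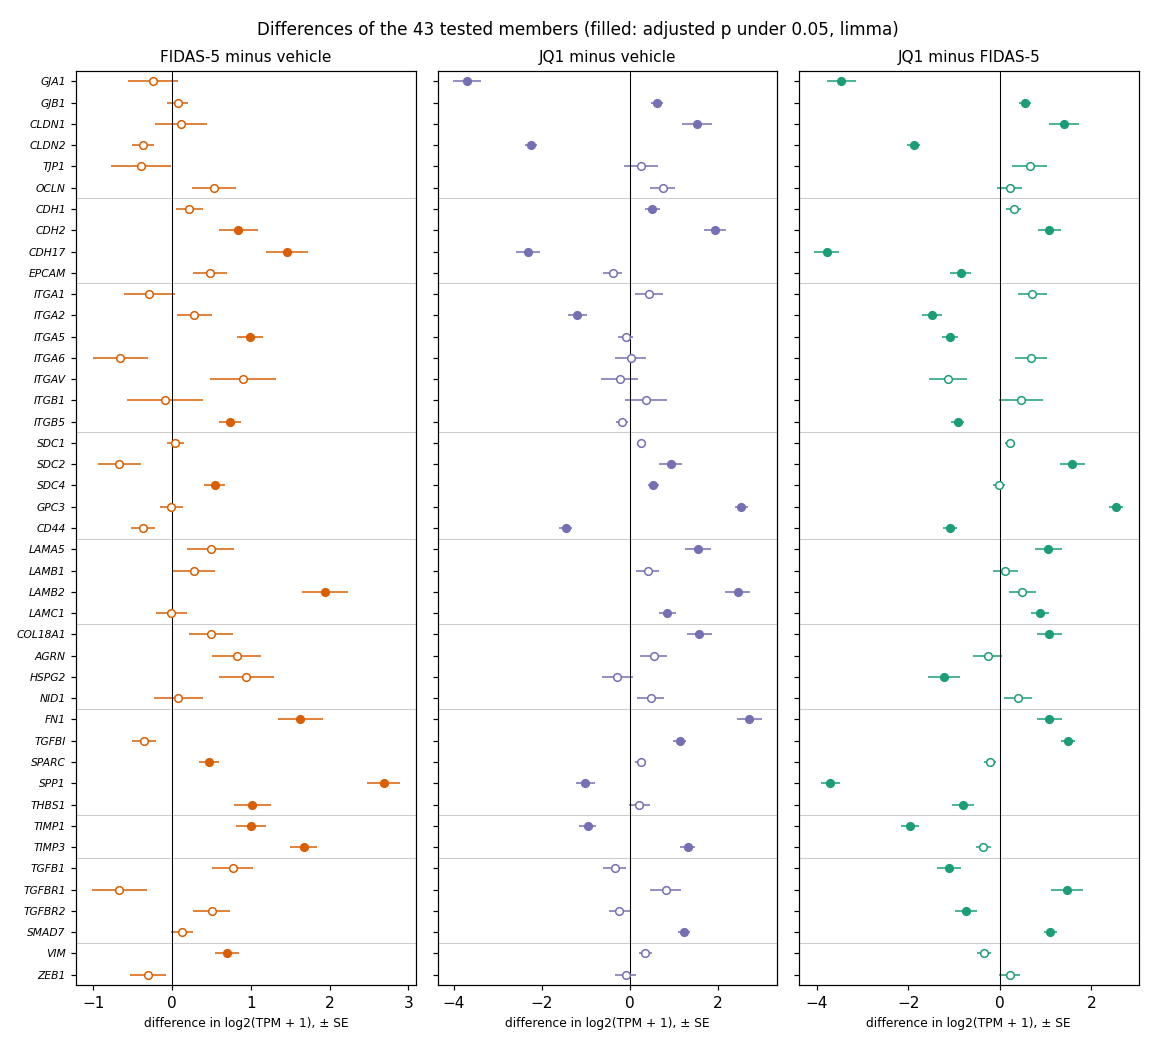
Difference in log2(TPM + 1) with its standard error for the 43 tested members, by role from junctions at the top to mesenchymal factors at the bottom, for FIDAS-5 minus vehicle, JQ1 minus vehicle and JQ1 minus FIDAS-5 (3 libraries a group). Filled points are called at an adjusted p under 0.05; with FIDAS-5 all 13 filled points lie above 0, and with JQ1 15 lie above and 7 below.

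Hepatocyte markers were abundant. Their summed level, over 10 genes, was 8652 to 12284 TPM in JQ1 libraries, 3468 to 4798 in FIDAS-5 libraries and 3777 to 4309 in vehicle libraries. JQ1 called 7 of these 10 higher and 3 lower, and FIDAS-5 called 2 higher. Fibroblast and stellate markers summed to 3.31 to 5.44, 5.15 to 8.24 and 8.63 to 8.87 TPM in JQ1, FIDAS-5 and vehicle libraries, with DCN, THY1 and POSTN listed at 0 in all vehicle libraries. Endothelial markers, mostly PECAM1, summed to 1.6 to 1.91, 15.6 to 16.8 and 7.03 to 10.2 TPM in the same order, with CDH5 listed at 0 in every group. Leukocyte markers, mostly LYZ, summed to 19.2 to 28.1, 253 to 312 and 115 to 141 TPM. The part of these marker levels in the results below was not tested. In bulk RNA, fewer cells of a kind and less RNA per cell cannot be told apart.

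Among the matrix glycoproteins, fibronectin rose with both compounds and osteopontin moved in opposite directions. FN1 encodes fibronectin, the matrix ligand of the integrin alpha-5 beta-1. It had 1191, 1066 and 867 TPM in JQ1 libraries, 622, 362 and 512 TPM in FIDAS-5 libraries, and 225, 117 and 145 TPM in vehicle libraries. No library of one group reached into another. The difference from vehicle was 2.71 ± 0.28 (SE) with JQ1 (limma adjusted p = 0.000139) and 1.63 ± 0.28 with FIDAS-5 (adjusted p = 0.00381), and the ratio of mean TPM was 6.41 with JQ1 and 3.07 with FIDAS-5.

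SPP1 encodes osteopontin, a secreted phosphoprotein that binds integrins and CD44. It had 16, 13.1 and 8.79 TPM in FIDAS-5 libraries, against 0.691, 1.21 and 1.32 TPM in vehicle libraries. All FIDAS-5 libraries lay above all vehicle libraries, with a ratio of mean TPM of 11.8. The difference of 2.69 ± 0.21 on the log2 scale (limma adjusted p = 7.68e-05) was the largest among the members for FIDAS-5. In JQ1 libraries SPP1 stood at 0.0383, 0 and 0.028 TPM, all below vehicle (difference -1.01 ± 0.21, adjusted p = 0.00537), and with a pseudocount of 0.1 in place of 1 it was -3.23. SPP1 is also on the cholangiocyte marker list, whose 7 genes summed to 32 to 48.6 TPM in JQ1, 37.5 to 55.7 TPM in FIDAS-5 and 27.6 to 33.1 TPM in vehicle libraries, with KRT7 listed at 0 throughout; their part in the result was not tested.

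THBS1 encodes thrombospondin-1, a matricellular protein that can release latent TGF-beta. It had 9.86, 4.99 and 7.45 TPM in FIDAS-5 libraries, against 3.28, 2.52 and 3.37 TPM in vehicle libraries. The groups did not overlap, and the difference was 1.02 ± 0.24 (limma adjusted p = 0.0169); the call was lost when FIDAS-5 replicate 1, FIDAS-5 replicate 3 or vehicle replicate 2 was left out (adjusted p 0.0517 to 0.0598). TGFBI, a secreted protein first found as a TGF-beta induced gene, had 31.9, 30 and 30 TPM in JQ1 libraries, against 15.2, 12.3 and 13.1 TPM in vehicle libraries. JQ1 libraries were tightly grouped above vehicle (1.13 ± 0.15, adjusted p = 0.000486), whereas FIDAS-5 libraries averaged 10.3 ± 1.69 TPM (SD, n = 3) and all lay below vehicle without being called (-0.36 ± 0.15, adjusted p = 0.117). SPARC, a collagen-binding matricellular protein, averaged 9.40 ± 1.09 TPM with FIDAS-5 and 6.53 ± 0.703 TPM with vehicle. It was called higher (0.47 ± 0.13, adjusted p = 0.0344), but 11 alternative settings lost this call. Among them were the fits without FIDAS-5 replicate 1 or 2, JQ1 replicate 1 or 2, or vehicle replicate 1 or 3 (adjusted p 0.0524 to 0.127), and removal of the GC trend, where the difference was 0.31.

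**Figure D2:**
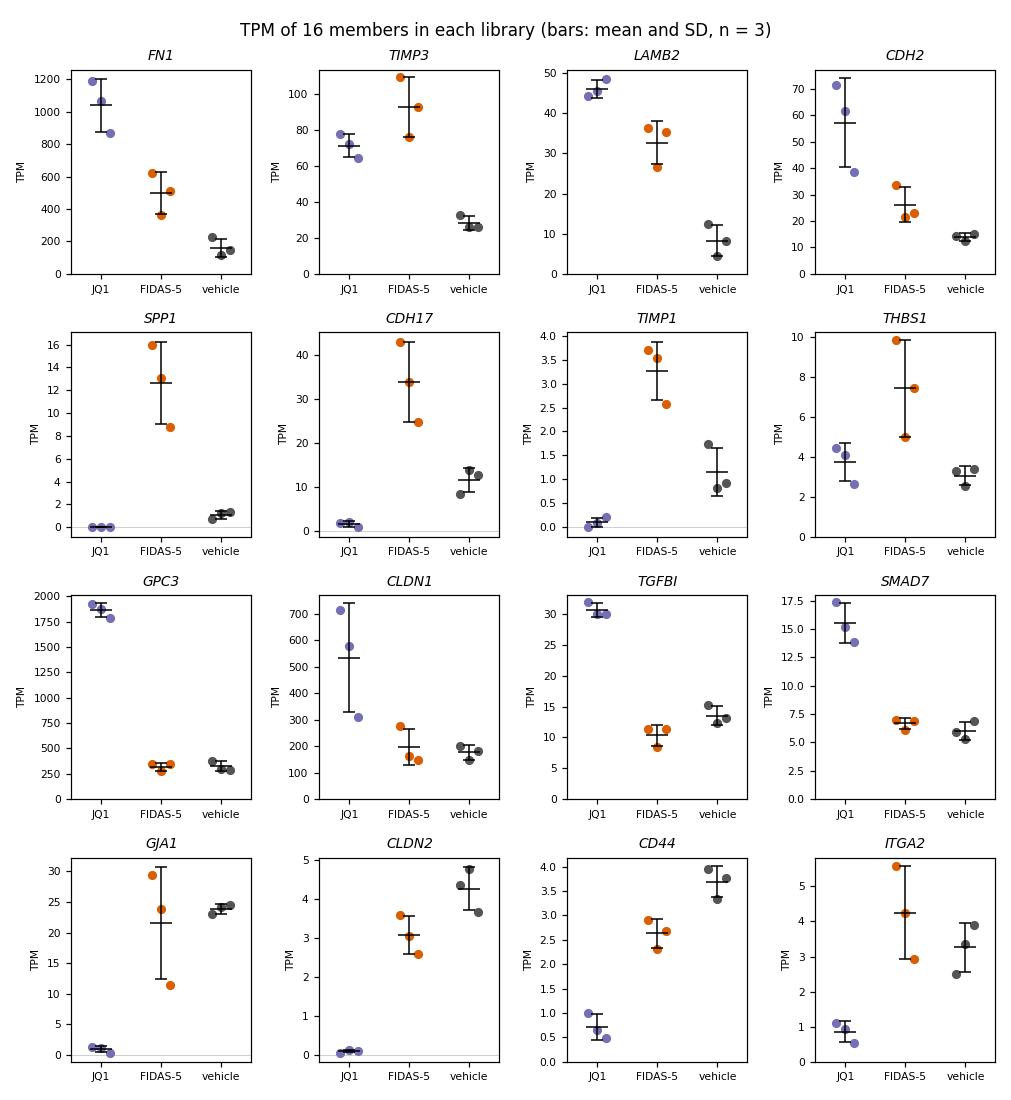
TPM in each library (points) with the mean and SD (bars, n = 3) for 16 members, with JQ1, FIDAS-5 and vehicle from left to right in each panel; the vertical axes differ between panels. FN1, TIMP3, LAMB2 and CDH2 lie above vehicle with both compounds, SPP1, CDH17 and TIMP1 lie above vehicle with FIDAS-5 and below it with JQ1, and GJA1 and CLDN2 lie at or under 1.39 TPM with JQ1.

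LAMA5, LAMC1 and COL18A1 rose with JQ1, and LAMB2 rose with both compounds. Laminins are trimers of an alpha, a beta and a gamma chain and form the sheet of the basement membrane. LAMB2, the beta-2 chain, had 44.2, 45.4 and 48.6 TPM in JQ1 libraries, 36.2, 26.5 and 35.3 TPM in FIDAS-5 libraries, and 12.3, 4.37 and 8.24 TPM in vehicle libraries. Both treated groups lay above vehicle in every library, and the vehicle libraries themselves spread widely. The differences were 2.44 ± 0.29 with JQ1 (limma adjusted p = 0.000316) and 1.94 ± 0.29 with FIDAS-5 (adjusted p = 0.00215).

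LAMA5, the alpha-5 chain, had 8.87, 8.07 and 8.38 TPM in JQ1 libraries, against 4.24, 1.12 and 2.06 TPM in vehicle libraries. Its JQ1 libraries lay above all vehicle libraries (1.54 ± 0.30, limma adjusted p = 0.00389), while FIDAS-5 libraries, at 3.60 ± 0.94 TPM, overlapped vehicle. LAMC1, the gamma-1 chain common to most laminins, averaged 36.8 ± 10.0 TPM in JQ1 libraries and 19.4 ± 0.767 TPM in vehicle libraries (0.85 ± 0.20, adjusted p = 0.0103). With FIDAS-5 it averaged 19.3 ± 2.85 TPM, a difference of -0.01 ± 0.20 from vehicle. LAMB1, the beta-1 chain, averaged 45.7 ± 14.1 TPM with JQ1, 41.7 ± 12.6 TPM with FIDAS-5 and 33.4 ± 3.77 TPM with vehicle, and neither difference was called. Of the 4 tested laminin genes, JQ1 called 3 higher and FIDAS-5 called 1, beside 19% and 12.6% of all tested genes. Without JQ1 replicate 3, LAMB1 was called higher with JQ1 too. Without vehicle replicate 1, LAMA5 was called higher with FIDAS-5.

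COL18A1 encodes collagen XVIII, a basement membrane collagen whose fragment is endostatin. It had 17.8, 18.7 and 18.5 TPM in JQ1 libraries, against 8.83, 2.92 and 6.09 TPM in vehicle libraries. The JQ1 libraries all lay above vehicle (1.57 ± 0.28, limma adjusted p = 0.00263), and the FIDAS-5 libraries, at 8.13 ± 0.707 TPM, overlapped vehicle. The other basement membrane genes were not called with either compound. With FIDAS-5 limma called 0 of the 4 basement membrane genes, and 2 were higher at an unadjusted p under 0.05. AGRN (agrin) averaged 7.15 ± 0.545 TPM with JQ1, 8.86 ± 0.788 TPM with FIDAS-5 and 5.07 ± 2.93 TPM with vehicle. HSPG2 (perlecan) averaged 2.26 ± 0.0677, 6.90 ± 2.28 and 3.34 ± 2.14 TPM in JQ1, FIDAS-5 and vehicle libraries, and NID1 (nidogen-1, which links laminin to collagen IV) 71.4 ± 10.6, 54.9 ± 13.2 and 54.5 ± 24.7 TPM. Without vehicle replicate 1, which was the highest vehicle library for these 3 genes, AGRN was called higher with both compounds (limma adjusted p = 0.0206 with JQ1 and 0.013 with FIDAS-5), HSPG2 and LAMA5 higher with FIDAS-5 (0.0171 and 0.0367) and NID1 higher with JQ1 (0.0384).

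The inhibitors of matrix metalloproteinases split. TIMP3, the inhibitor that binds to the matrix itself, had 77.4, 71.9 and 64.4 TPM in JQ1 libraries, 109, 75.8 and 92.7 TPM in FIDAS-5 libraries, and 32.8, 25.8 and 26 TPM in vehicle libraries. Both treated groups stood clear of vehicle, by 1.31 ± 0.17 with JQ1 (limma adjusted p = 0.000458) and 1.67 ± 0.17 with FIDAS-5 (adjusted p = 0.000282). TIMP1, a soluble inhibitor, was listed at 0, 0.0818 and 0.199 TPM in JQ1 libraries, 3.71, 3.53 and 2.58 TPM in FIDAS-5 libraries, and 1.73, 0.811 and 0.922 TPM in vehicle libraries. Its order was FIDAS-5, vehicle, JQ1 with no overlap, and it was called higher with FIDAS-5 (1.0 ± 0.19, adjusted p = 0.00604) and lower with JQ1 (-0.96 ± 0.19, adjusted p = 0.00387). With a pseudocount of 0.1 the JQ1 difference was -2.76.

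Among the cadherins, CDH2 rose with both compounds and CDH17 moved in opposite directions. CDH2, or N-cadherin, had 71.5, 61.6 and 38.6 TPM in JQ1 libraries, 33.7, 21.6 and 23 TPM in FIDAS-5 libraries, and 14.4, 12.3 and 15.1 TPM in vehicle libraries. The 3 groups did not overlap. The JQ1 difference was 1.92 ± 0.25 (limma adjusted p = 0.000468); the FIDAS-5 difference was 0.84 ± 0.25 (adjusted p = 0.043), and 9 alternative settings put it past 0.05, with adjusted p of 0.0505 to 0.124. These included the fits without any 1 library other than JQ1 replicate 1 or 3.

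CDH17, the liver-intestine cadherin, had 1.8, 2.04 and 0.795 TPM in JQ1 libraries, 43, 33.7 and 24.7 TPM in FIDAS-5 libraries, and 8.42, 13.7 and 12.6 TPM in vehicle libraries. Every FIDAS-5 library was above and every JQ1 library below vehicle, by 1.46 ± 0.27 (limma adjusted p = 0.0064) and -2.32 ± 0.27 (adjusted p = 0.000309). CDH1, or E-cadherin, averaged 27.9 ± 5.46 TPM with JQ1, 22.3 ± 2.25 TPM with FIDAS-5 and 19.1 ± 2.25 TPM with vehicle. It was called higher with JQ1 (0.51 ± 0.17, adjusted p = 0.0391), a call that 9 alternative settings lost, among them the fits without FIDAS-5 replicate 2 or 3, JQ1 replicate 1 or 2, or vehicle replicate 2 or 3 (adjusted p 0.053 to 0.13), and was not called with FIDAS-5 (0.22 ± 0.17, adjusted p = 0.409). EPCAM, an epithelial adhesion molecule, averaged 4.27 ± 1.23, 8.55 ± 2.22 and 5.76 ± 0.514 TPM in JQ1, FIDAS-5 and vehicle libraries and was called with neither (-0.39, adjusted p = 0.196 with JQ1; 0.48, adjusted p = 0.163 with FIDAS-5). It was called lower with JQ1 and higher with FIDAS-5 under median-of-ratios scaling (adjusted p = 0.0458 and 0.027), quantile normalization (0.0302 for both) and removal of the GC trend (0.0365 and 0.0008).

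Of the 6 tested junction genes JQ1 called 2 higher and 2 lower. With FIDAS-5 limma called 0 of 6, and 1 was lower at an unadjusted p under 0.05. CLDN2 and OCLN were called with FIDAS-5 once the GC trend was removed (-0.41, adjusted p = 0.0272, and 0.76, adjusted p = 0.000916). GJA1, connexin 43 of gap junctions, had 1.39, 1.11 and 0.413 TPM in JQ1 libraries, against 23, 24.1 and 24.5 TPM in vehicle libraries. The JQ1 libraries were all far below vehicle (-3.69 ± 0.32, adjusted p = 6.65e-05). FIDAS-5 libraries had 29.4, 23.8 and 11.5 TPM and overlapped vehicle. GJB1, connexin 32 and the main hepatocyte connexin, averaged 101 ± 6.25 TPM with JQ1 and 66.0 ± 5.77 TPM with vehicle, a difference of 0.61 ± 0.13 (adjusted p = 0.00503) in the other direction.

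The claudins split in the same way. CLDN1, a barrier-forming claudin of hepatocytes, had 716, 579 and 310 TPM in JQ1 libraries, against 202, 148 and 181 TPM in vehicle libraries. All JQ1 libraries lay above vehicle although they spread widely (1.52 ± 0.33, limma adjusted p = 0.00675), and FIDAS-5 libraries, at 276, 165 and 150 TPM, overlapped vehicle. CLDN2, a claudin that forms cation channels, had 0.0746, 0.135 and 0.109 TPM in JQ1 libraries, 3.6, 3.06 and 2.61 TPM in FIDAS-5 libraries, and 4.36, 4.79 and 3.68 TPM in vehicle libraries. JQ1 libraries lay far below both other groups (-2.25 ± 0.14 against vehicle, adjusted p = 1.45e-05; -4.41 with a pseudocount of 0.1). FIDAS-5 libraries were all below vehicle, but the difference of -0.37 ± 0.14 was not called (adjusted p = 0.0911).

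OCLN (occludin) averaged 7.77 ± 3.17 TPM with JQ1, 6.38 ± 1.98 TPM with FIDAS-5 and 4.0 ± 0.0671 TPM with vehicle. Every treated library lay above every vehicle library, yet limma called neither difference (0.74 ± 0.28, adjusted p = 0.0668 with JQ1; 0.53 ± 0.28, adjusted p = 0.229 with FIDAS-5). Without JQ1 replicate 3 the JQ1 difference was called (adjusted p = 0.00619). Median-of-ratios scaling, quantile normalization and removal of the GC trend each called OCLN higher with both compounds. Protein-coding genes only and a replicate block called it higher with JQ1 and not with FIDAS-5. TJP1, the scaffold ZO-1, averaged 19.4 ± 8.49, 11.8 ± 5.38 and 15.1 ± 2.42 TPM in JQ1, FIDAS-5 and vehicle libraries, and all groups overlapped.

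Of the 7 tested integrin genes, FIDAS-5 called 2 higher and JQ1 called ITGA2 lower. With JQ1 limma called 0 of the 7 higher, and 0 were higher at an unadjusted p under 0.05. ITGA5, which pairs with beta-1 as a fibronectin receptor, had 28.6, 23 and 25.9 TPM in FIDAS-5 libraries, against 16.6, 10.6 and 11 TPM in vehicle libraries. The groups did not overlap (0.99 ± 0.17, limma adjusted p = 0.00457). ITGB5, which pairs with alpha-V as a vitronectin receptor, averaged 23.2 ± 1.89 TPM with FIDAS-5 and 13.5 ± 2.31 TPM with vehicle (0.74 ± 0.14, adjusted p = 0.00714). With JQ1 these genes averaged 11.6 ± 0.153 TPM (ITGA5) and 11.8 ± 0.833 TPM (ITGB5), inside or overlapping the vehicle range.

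ITGA2, the alpha chain of a collagen receptor, had 1.11, 0.942 and 0.538 TPM in JQ1 libraries, against 2.51, 3.37 and 3.91 TPM in vehicle libraries. JQ1 libraries were all lower (-1.19 ± 0.22, limma adjusted p = 0.00289; -1.83 with a pseudocount of 0.1), and FIDAS-5 libraries, at 4.25 ± 1.31 TPM, overlapped vehicle. ITGAV, the alpha-V chain, had 35, 20.2 and 12.4 TPM in FIDAS-5 libraries, against 11.8, 9.16 and 11.1 TPM in vehicle libraries. Its FIDAS-5 libraries were all higher but spread so far that the difference was not called (0.90 ± 0.42, adjusted p = 0.175). Without FIDAS-5 and JQ1 replicate 3 the difference was 1.25 with an adjusted p of 0.0119. Removal of the GC trend, with or without a replicate block, also called ITGAV higher with FIDAS-5.

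The common beta-1 chain ITGB1 had 170, 145 and 48.3 TPM in JQ1 libraries, 114, 88.8 and 44.1 TPM in FIDAS-5 libraries, and 78.8, 82.8 and 83.3 TPM in vehicle libraries. Replicate 3 of each treated group lay below all vehicle libraries and replicates 1 and 2 lay above, so that neither difference was called (0.37 ± 0.48 with JQ1, limma adjusted p = 0.568; -0.09 ± 0.48 with FIDAS-5, adjusted p = 0.918). Without replicate 3 of both compounds the JQ1 difference was 0.93 (adjusted p = 0.0036). ITGA1, a collagen-binding chain, averaged 7.89 ± 3.19, 4.40 ± 1.87 and 5.31 ± 0.428 TPM in JQ1, FIDAS-5 and vehicle libraries, and ITGA6, a laminin-binding chain, 17.3 ± 7.89, 9.85 ± 3.19 and 15.7 ± 1.71 TPM; neither was called with either compound.

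**Figure D3:**
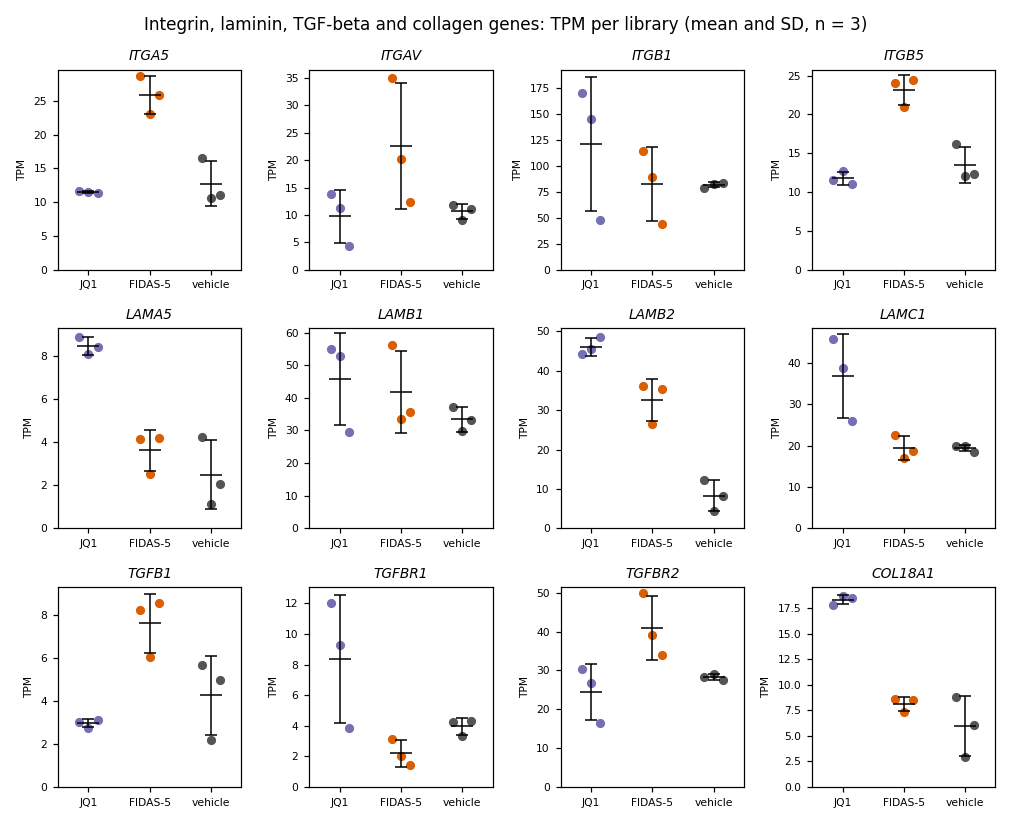
TPM in each library (points) with the mean and SD (bars, n = 3) for 4 integrin, 4 laminin and 3 TGF-beta pathway genes and COL18A1, with JQ1, FIDAS-5 and vehicle from left to right. ITGA5 and ITGB5 are highest in FIDAS-5 libraries, LAMA5, LAMC1 and COL18A1 in JQ1 libraries, and ITGB1 shows JQ1 and FIDAS-5 replicate 3 at 48.3 and 44.1 TPM below the vehicle libraries.

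Among proteoglycans and CD44, GPC3, SDC2 and SDC4 rose with JQ1 and CD44 fell. GPC3, glypican-3, is a heparan sulfate proteoglycan and a clinical marker of hepatocellular carcinoma. It had 1920, 1879 and 1785 TPM in JQ1 libraries, 344, 273 and 344 TPM in FIDAS-5 libraries, and 379, 297 and 291 TPM in vehicle libraries. JQ1 libraries were tightly grouped far above vehicle (2.53 ± 0.15, limma adjusted p = 1.45e-05, ratio of mean TPM 5.77). FIDAS-5 libraries overlapped vehicle (-0.01 ± 0.15, adjusted p = 0.978). The other markers of hepatocellular carcinoma or fetal liver that were searched did not rise. H19 fell with JQ1 (-1.36 ± 0.16, limma adjusted p = 0.000251) and with FIDAS-5 (-1.40 ± 0.16, adjusted p = 0.000488). AFP was called with neither (-0.13 with JQ1 and -0.59 with FIDAS-5), and DLK1 was listed at 0 in every group.

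The syndecans are transmembrane proteoglycans that act beside integrins. SDC4 averaged 71.7 ± 7.13 TPM with JQ1, 72.3 ± 6.27 TPM with FIDAS-5 and 49.5 ± 4.47 TPM with vehicle, and was called higher with both (0.53 ± 0.13, limma adjusted p = 0.0133, and 0.54 ± 0.13, adjusted p = 0.021). The JQ1 call was lost without JQ1 replicate 1 or vehicle replicate 3 (adjusted p 0.0514 and 0.0578), and the FIDAS-5 call without FIDAS-5 replicate 1 or 3 or vehicle replicate 3 (0.0583 to 0.0907). SDC2 averaged 49.3 ± 16.4 TPM with JQ1, 15.3 ± 3.07 TPM with FIDAS-5 and 24.7 ± 4.12 TPM with vehicle. Its JQ1 libraries were all above and its FIDAS-5 libraries all below vehicle, and the JQ1 difference was called (0.92 ± 0.27, adjusted p = 0.0257) and the FIDAS-5 difference was not (-0.67 ± 0.27, adjusted p = 0.119). The JQ1 call was lost without JQ1 replicate 1 or 2 or vehicle replicate 1 or 3 (adjusted p 0.0743 to 0.0895). Median-of-ratios scaling, quantile normalization, protein-coding genes only and removal of the GC trend each called SDC2 lower with FIDAS-5. SDC1 averaged 43.4 ± 1.37, 37.1 ± 0.781 and 36.3 ± 3.60 TPM in JQ1, FIDAS-5 and vehicle libraries and was called with neither. CD44, the hyaluronan receptor, had 1.01, 0.659 and 0.484 TPM in JQ1 libraries, 2.9, 2.31 and 2.68 TPM in FIDAS-5 libraries, and 3.96, 3.34 and 3.77 TPM in vehicle libraries. Both treated groups lay below vehicle, and the JQ1 difference was called (-1.46 ± 0.15, adjusted p = 0.000127; -2.26 with a pseudocount of 0.1) while that of FIDAS-5 was not (-0.37 ± 0.15, adjusted p = 0.111). Quantile normalization called CD44 lower with FIDAS-5 too.

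In the TGF-beta pathway itself, the inhibitor SMAD7 rose with JQ1. No ligand or receptor was called with either compound before the alternative settings were applied, and some of those settings called TGFB1, TGFBR1 and TGFBR2. Of these 4 tested genes limma called 0 with FIDAS-5, and 1 was higher at an unadjusted p under 0.05; with JQ1 it called 1, and 2 were higher at that level. SMAD7, which blocks the receptor and is itself a target of the pathway, had 17.4, 15.2 and 13.9 TPM in JQ1 libraries, against 5.93, 5.29 and 6.89 TPM in vehicle libraries. JQ1 libraries all lay above vehicle (1.23 ± 0.14, limma adjusted p = 0.000219), and FIDAS-5 libraries, at 6.67 ± 0.458 TPM, overlapped vehicle. The ligand TGFB1 had 3.04, 2.74 and 3.09 TPM in JQ1 libraries, 8.23, 6.05 and 8.56 TPM in FIDAS-5 libraries, and 5.66, 2.18 and 4.95 TPM in vehicle libraries. FIDAS-5 libraries all lay above vehicle without passing the threshold (0.77 ± 0.26, adjusted p = 0.0728), and JQ1 libraries lay inside the vehicle range. Leaving out vehicle replicate 1 called the FIDAS-5 difference (adjusted p = 0.0386), and leaving out vehicle replicate 2 called that of JQ1 (adjusted p = 0.0167). Median-of-ratios scaling, protein-coding genes only and a replicate block each called TGFB1 higher with FIDAS-5. Removal of the GC trend with the block called TGFB1 higher with FIDAS-5 and lower with JQ1.

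The type I receptor TGFBR1 had 12, 9.29 and 3.82 TPM in JQ1 libraries, 3.12, 2.04 and 1.4 TPM in FIDAS-5 libraries, and 4.27, 3.32 and 4.29 TPM in vehicle libraries. FIDAS-5 libraries were all below vehicle (-0.67 ± 0.35, limma adjusted p = 0.218), and JQ1 replicate 3 lay within the vehicle range while the others lay above it (0.81 ± 0.35, adjusted p = 0.0987). Without replicate 3 of both compounds the JQ1 difference was 1.23 (adjusted p = 0.00255). TGFBR1 was also called higher with JQ1 under median-of-ratios scaling, quantile normalization, protein-coding genes only, removal of the GC trend and the replicate block. The type II receptor TGFBR2 averaged 24.5 ± 7.27 TPM with JQ1, 40.9 ± 8.14 TPM with FIDAS-5 and 28.3 ± 0.803 TPM with vehicle, and neither difference was called (-0.24 ± 0.23 with JQ1 and 0.50 ± 0.23 with FIDAS-5). The FIDAS-5 difference was called under median-of-ratios scaling (limma adjusted p = 0.0176), quantile normalization (0.0405), protein-coding genes only (0.031) and removal of the GC trend (0.00378).

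Of the mesenchymal factors, VIM (the intermediate filament vimentin) averaged 35.8 ± 2.97 TPM with JQ1, 46.3 ± 7.59 TPM with FIDAS-5 and 27.9 ± 1.24 TPM with vehicle. All treated libraries lay above vehicle, and FIDAS-5 was called (0.70 ± 0.15, limma adjusted p = 0.0103) while JQ1 was not (0.35 ± 0.15, adjusted p = 0.0911). ZEB1, a repressor of epithelial genes, averaged 2.33 ± 0.528, 1.95 ± 0.98 and 2.56 ± 0.499 TPM in JQ1, FIDAS-5 and vehicle libraries, and the groups overlapped. With JQ1 limma called 0 of the 2 tested mesenchymal factors, and 1 was higher at an unadjusted p under 0.05.

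Set directly against each other, JQ1 and FIDAS-5 differed in 26 of the 43 members, 12 higher with JQ1 and 14 lower; over all tested genes 34.8% were called, 16.4% higher and 18.5% lower. All JQ1 libraries lay above all FIDAS-5 libraries in 14 members and below them in 15, beside 22.7% and 25% of all tested genes (47.6% in either direction). The compounds are unrelated and were given at different doses, so the contrast compares these treatments and not potencies. SPP1 (-3.70 ± 0.21, limma adjusted p = 4.52e-06), CDH17 (-3.78 ± 0.27, adjusted p = 1.69e-05) and TIMP1 (-1.96 ± 0.19, adjusted p = 7.62e-05) were lower with JQ1 and had been called in opposite directions against vehicle. GPC3 (2.54 ± 0.15), TGFBI (1.49 ± 0.15) and SDC2 (1.58 ± 0.27) were higher with JQ1, and GJA1 (-3.46 ± 0.32), CLDN2 (-1.88 ± 0.14), CD44 (-1.09 ± 0.15) and ITGA2 (-1.48 ± 0.22) were lower.

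FN1 and CDH2, which rose with both compounds, were higher with JQ1 than with FIDAS-5 by 1.08 ± 0.28 (limma adjusted p = 0.015) and 1.08 ± 0.25 (adjusted p = 0.00903). The FN1 call was lost without FIDAS-5 replicate 2 or JQ1 replicate 1 (adjusted p 0.0578 and 0.0508). For LAMB2 (0.49 ± 0.29, adjusted p = 0.222), TIMP3 (-0.36 ± 0.17, adjusted p = 0.13) and SDC4 (-0.01 ± 0.13, adjusted p = 0.949) the direct contrast was not called, which does not show that the treatments act alike. TIMP3 was called lower with JQ1 under median-of-ratios scaling, protein-coding genes only and removal of the GC trend. All 4 tested TGF-beta pathway genes differed between the compounds. TGFBR1 was higher with JQ1 (1.47 ± 0.35, limma adjusted p = 0.0106), as was SMAD7 (1.10 ± 0.14, adjusted p = 0.000353), and TGFB1 (-1.11 ± 0.26, adjusted p = 0.0107) and TGFBR2 (-0.74 ± 0.23, adjusted p = 0.0328) were lower. The TGFBR2 call was lost without any 1 of FIDAS-5 replicates 1 and 2, JQ1 replicates 2 and 3 and vehicle replicate 3 (adjusted p 0.053 to 0.0997), and without JQ1 replicate 3 the difference was -0.49. Lower with JQ1 were also the integrin chains ITGA5 (-1.09 ± 0.17) and ITGB5 (-0.92 ± 0.14), and EPCAM (-0.86), HSPG2 (-1.23) and THBS1 (-0.81). The HSPG2 and THBS1 calls were each lost in 4 of the fits that leave out 1 library: without FIDAS-5 replicate 1 or 3 or JQ1 replicate 2 for both, without JQ1 replicate 1 for HSPG2 (adjusted p 0.0571 to 0.073), and without JQ1 replicate 3 for THBS1 (0.0542 to 0.0811). LAMA5 (1.06) and COL18A1 (1.08) were called higher with JQ1, calls lost without FIDAS-5 replicate 2 or JQ1 replicate 2 for both and without JQ1 replicate 1 for LAMA5 (adjusted p 0.0518 to 0.0925). With the replicate number as a block in the fit of all 9 libraries, ITGAV was also called lower with JQ1 (-1.13, adjusted p = 0.0207). The block within the 6 JQ1 and FIDAS-5 libraries called 32 members, 17 higher with JQ1 and 15 lower, and 6668 of all tested genes. That block assumes that the replicate number pairs the libraries. The members it added were LAMB2 (0.49, adjusted p = 0.023), TJP1 (0.65, 0.0184), ITGA1 (0.71, 0.00284), ITGA6 (0.68, 0.00929) and ITGB1 (0.47, 0.0365), all higher with JQ1, and ITGAV (adjusted p = 0.00086).

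The 10 members that did not pass the filter were COL1A1, COL4A1, COL4A2, GJB2, ITGA3, LAMA1, LOXL2, SNAI2, TGFB2 and TIMP2. LAMA1 and COL4A1 were listed at 0 in all 9 libraries. An exact 0 in TPM values without counts can be a failed estimate or come from the annotation used, which is not given in the sources used here, so it is not read as absent expression. The same limit holds for COL4A2, which pairs with COL4A1 in collagen IV and was listed at no more than 0.012 TPM. COL1A1, a fibrillar collagen chain, and SNAI2, a repressor of E-cadherin, stayed at or under 0.164 and 0.0966 TPM. TGFB2, a second TGF-beta ligand, averaged 0.179 ± 0.0564 TPM with JQ1, 0.897 ± 0.248 TPM with FIDAS-5 and 0.530 ± 0.174 TPM with vehicle, with no overlap between groups. LOXL2, a collagen crosslinking enzyme, averaged 0.784 ± 0.116, 0.284 ± 0.11 and 0.294 ± 0.0727 TPM in JQ1, FIDAS-5 and vehicle libraries. ITGA3, a laminin-binding integrin chain, averaged 0.554 ± 0.112, 0.173 ± 0.0485 and 0.181 ± 0.0413 TPM in the same order, and TIMP2, a soluble protease inhibitor, 0.298 ± 0.106, 0.0858 ± 0.0271 and 0.0987 ± 0.0231 TPM. For these 3 genes all JQ1 libraries were above all others. At such low levels the counting error is unknown. How many genes below the filter separate in this way was not counted. The separations of these 3 genes and of TGFB2 are therefore not read as differences. GJB2, connexin 26, averaged 0.129 ± 0.104, 0.345 ± 0.15 and 0.454 ± 0.0879 TPM.

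Other genes of the same pathways were counted from 9 lists, of which 146 genes were tested. FIDAS-5 called 46 higher and 4 lower, and JQ1 called 39 higher and 30 lower; the median difference was 0.25 and 0.13. The shares called over all tested genes were 12.6% higher and 7.6% lower with FIDAS-5 and 19% higher and 19.4% lower with JQ1, so the JQ1 count lower is close to its background. The counts of single lists below are small and were not tested against these shares. The lists, like the members, were chosen with earlier results of these data known, so the shares beside them only describe. In the list of TGF-beta target genes FIDAS-5 called 8 of 15 higher and 0 lower in limma, where 2 were lower at an unadjusted p under 0.05, and JQ1 called 3 higher and 5 lower. CDKN1A, the cell cycle inhibitor p21, had 135, 116 and 116 TPM in FIDAS-5 libraries, against 16.9, 19.6 and 17 TPM in vehicle libraries (2.71 ± 0.14, limma adjusted p = 1.1e-05). All FIDAS-5 libraries lay far above vehicle, and with JQ1 the difference was not called (-0.31 ± 0.14, adjusted p = 0.104). BHLHE40, a transcriptional repressor, fell with JQ1 (-2.11 ± 0.17, adjusted p = 5.06e-05) and rose with FIDAS-5 (0.59 ± 0.17, adjusted p = 0.0422).

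In the signalling list of TGF-beta, BMP and activin genes, FIDAS-5 called 6 of 28 higher and 1 lower, and JQ1 called 4 higher and 6 lower. LTBP1, which stores latent TGF-beta in the matrix, rose with FIDAS-5 (1.24 ± 0.15, limma adjusted p = 0.000636) and was not called with JQ1 (-0.09). The decoy receptor BAMBI rose with both, by 0.98 ± 0.15 with JQ1 (adjusted p = 0.00136) and 0.92 ± 0.15 with FIDAS-5 (adjusted p = 0.00372). SMAD3, a signal transducer of the pathway, and SKI, a corepressor of SMAD proteins, rose with JQ1 (1.03 ± 0.16, adjusted p = 0.00118, and 1.99 ± 0.31, adjusted p = 0.00125), and neither was called with FIDAS-5 (0.38 and -0.09). The ligand BMP4 fell with JQ1 (-1.18 ± 0.19, adjusted p = 0.00134) and rose with FIDAS-5 (0.82 ± 0.19, adjusted p = 0.0155).

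Among the matrix proteases and inhibitors, FIDAS-5 called 8 of 17 higher and JQ1 5 higher and 3 lower. TIMP4, another metalloproteinase inhibitor, had 36.5, 21.9 and 33.7 TPM in FIDAS-5 libraries, against 2.48, 3.75 and 3.05 TPM in vehicle libraries (2.93 ± 0.22, limma adjusted p = 6.67e-05), and it fell with JQ1 (-0.94 ± 0.22, adjusted p = 0.00934). PLAU, the urokinase plasminogen activator, rose with JQ1 (1.03 ± 0.14, adjusted p = 0.000727) and with FIDAS-5 (1.58 ± 0.14, adjusted p = 0.00017). MMP11, a metalloproteinase, rose with JQ1 (2.0 ± 0.17, adjusted p = 6.47e-05), as did the lysosomal protease CTSB (1.37 ± 0.12, adjusted p = 6.03e-05).

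In the list of other matrix and collagen-processing genes, FIDAS-5 called 6 of 23 higher and 1 lower, and JQ1 7 higher and 3 lower. VTN (vitronectin) rose with FIDAS-5 (1.26 ± 0.13, limma adjusted p = 0.000372). LOX, the lysyl oxidase that crosslinks collagen, had 5.35, 4.25 and 1.75 TPM in JQ1 libraries, against 43.1, 24.1 and 32.4 TPM in vehicle libraries (-2.89 ± 0.35, adjusted p = 0.000321). SERPINH1, the collagen chaperone HSP47, also fell with JQ1 (-1.24 ± 0.13, adjusted p = 0.000147). In the list of proteoglycans and their synthesis JQ1 called 5 of 8 higher and 1 lower and FIDAS-5 2 higher; EXT1 and EXT2, which polymerise heparan sulfate, rose with JQ1 by 1.16 ± 0.16 (adjusted p = 0.000684) and 1.31 ± 0.13 (adjusted p = 0.000125).

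In the integrin and focal adhesion list, FIDAS-5 called 9 of 22 higher and 1 lower, and JQ1 8 higher and 6 lower. The focal adhesion adaptor TNS3 rose with FIDAS-5 (1.18 ± 0.15, limma adjusted p = 0.00107). VASP, an actin regulator, rose with FIDAS-5 (0.67 ± 0.12, adjusted p = 0.00426) and fell with JQ1 (-1.26 ± 0.12, adjusted p = 8.7e-05). With JQ1 the integrin chain ITGB3 and the talin TLN2 rose (1.83 ± 0.12, adjusted p = 1.6e-05, and 2.04 ± 0.14, adjusted p = 2.32e-05), and FERMT1 (kindlin-1) fell with JQ1 (-2.03 ± 0.13, adjusted p = 1.95e-05) and with FIDAS-5 (-0.53 ± 0.13, adjusted p = 0.024). In the tight and gap junction list FIDAS-5 called 3 of 15 higher and 1 lower, and JQ1 2 higher and 4 lower; CLDN7 rose with FIDAS-5 (0.86 ± 0.14, adjusted p = 0.00362) and fell with JQ1 (-0.91 ± 0.14, adjusted p = 0.0014). In the adherens junction and desmosome list FIDAS-5 called 4 of 15 higher and JQ1 3 higher and 1 lower, with JUP (plakoglobin) higher with JQ1 (1.82 ± 0.29, adjusted p = 0.00137). In the list of mesenchymal transcription factors and their epithelial counterparts FIDAS-5 called 1 of 5 higher and JQ1 2 higher and 1 lower. SNAI1, a repressor of E-cadherin, fell with JQ1 (-1.17 ± 0.18, limma adjusted p = 0.00119). SNAI3 rose with JQ1 (1.30 ± 0.15, adjusted p = 0.000272) and with FIDAS-5 (0.81 ± 0.15, adjusted p = 0.00627). GRHL1 rose with JQ1 (1.23 ± 0.21, adjusted p = 0.00195) and was not called with FIDAS-5 (0.14 ± 0.21, adjusted p = 0.693). MMP11, CTSB, SERPINH1, EXT1, EXT2, ITGB3, TLN2, JUP, LOX and SNAI1, named for JQ1, were not called with FIDAS-5, and VTN and TNS3, named for FIDAS-5, were not called with JQ1.

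Replicate 3 of each treated group departed from replicates 1 and 2 in step with transcript GC content. Over the 43 members, the Spearman correlation of that departure with GC was 0.84 for JQ1, 0.81 for FIDAS-5 and -0.34 for vehicle, as a description across genes that share a library. A library's departure from its group mean was also correlated with GC over all tested genes with a GC value. The Spearman correlation was 0.64 for JQ1 replicate 3, 0.56 for FIDAS-5 replicate 3 and 0.39 for vehicle replicate 1. For replicates 1 and 2 it was -0.655 and -0.341 with JQ1, and -0.506 and -0.209 with FIDAS-5. For vehicle replicates 2 and 3 it was -0.273 and -0.139. Departures from a mean cancel within a group, so these values do not show which library is unusual. The correlation of the difference from vehicle with GC was 0.22 with JQ1 and 0.37 with FIDAS-5. The trend was thus present outside replicate 3 of the treated groups too. In the 12 members under 45% GC, replicate 3 was below the others by a median difference of -1.0 with JQ1 and -0.68 with FIDAS-5, while that of vehicle was 0.12. In the remaining members the medians were -0.13, 0.03 and -0.10 for JQ1, FIDAS-5 and vehicle. ITGB1, ITGAV and TJP1 are among the low-GC members, and what part GC content has in the differences was not tested beyond the settings given in the closing section. The split at 45% was chosen after the values were seen.

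**Figure D4:**
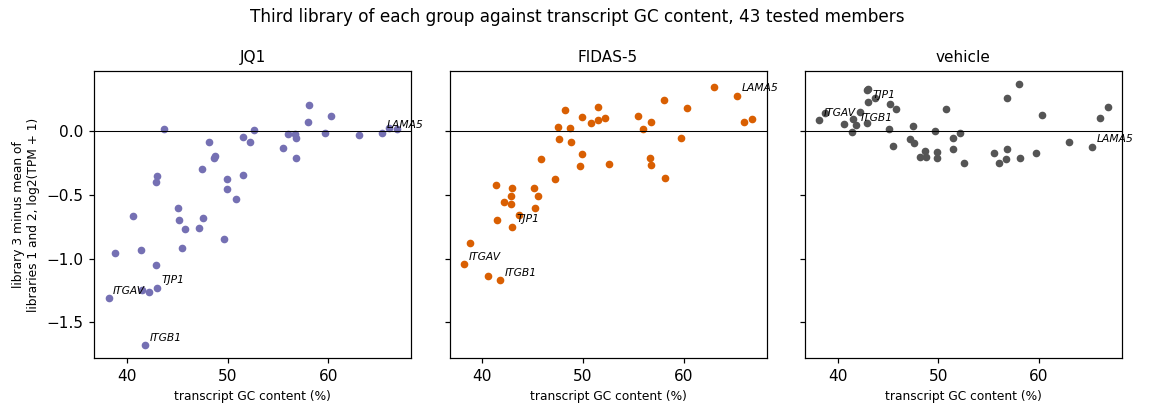
Replicate 3 minus the mean of replicates 1 and 2, in log2(TPM + 1), against the GC content of the transcripts for the 43 tested members, with JQ1, FIDAS-5 and vehicle from left to right. In JQ1 and FIDAS-5 libraries most members under 45% GC, ITGB1 among them, lie below 0 (medians -1.0 and -0.68), and in vehicle libraries most lie above it (median 0.12).

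Grouped by call with JQ1, the promoter windows differed in composition as a description without a test. Windows of the 6 members called lower had a median GC content of 55.5% (47 to 72.7%), those of the 12 called higher 72.7% (48.3 to 86.7%), and those of the 19 tested members not called 69.3% (42.3 to 83.3%). A GC box was present in 3 of the 6, 10 of the 12 and 14 of the 19, and the AP-1 letters in 2, 0 and 1. The FN1 and COL18A1 windows printed above stand in the higher group and the SPP1, GJA1 and CLDN2 windows in the lower group. SMAD7, which was called higher, has a window of 48.3% GC. Grouped by call with FIDAS-5, the medians were 66% for the 12 called higher and 70% for the 25 not called, so the members called higher stood above the uncalled ones with JQ1 and below them with FIDAS-5.

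**Figure D5:**
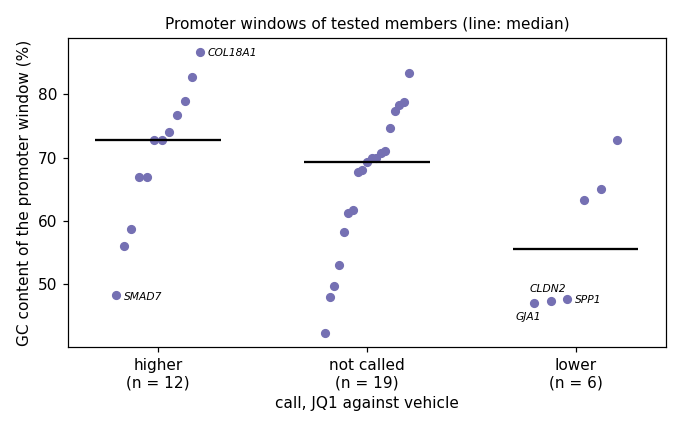
GC content of the 300-base promoter window (RefSeq GRCh38.p14) for each tested member with a window, by its call for JQ1 against vehicle, with a line at the median. The medians are 72.7% for 12 members called higher, 69.3% for 19 not called and 55.5% for 6 called lower, and the groups overlap.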

How the data were processed

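RNA from 3 JQ1, 3 FIDAS-5 and 3 vehicle libraries was sequenced after column extraction (RNeasy), and libraries were made by a commercial provider, per the labels. The authors deposited TPM per gene symbol, made with Salmon on hg38 per the submitters' processing notes; its version, the annotation and the read depth are not given in the sources used here. Each library sums to between 999999 and 1000001 TPM.

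Values were taken as log2(TPM + 1), which understates changes of low genes. The filter of 1 TPM in 3 libraries left 13573 genes, which were fitted with a mean per group in limma 3.58.1 (R 4.3.3). Variances were moderated by eBayes, trend off; residual degrees of freedom were 6 and prior ones 2.86. Tests were two-sided, with Benjamini-Hochberg adjustment over all of them. The fit was also run on simulated data with independent normal noise. Those data held no GC trend between libraries, so that run cannot show how the fit behaves under such a trend. Of the symbols, 25681 matched RefSeq GRCh38.p14 directly and 1134 as synonyms. GC content was the value for transcripts in GENCODE 29 (13041 tested genes, 96.1%). Figures used Python 3.11.15 and matplotlib 3.10.9.

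The members and lists were chosen with earlier results of these data known. Values per library were due for members called against vehicle with a difference of at least 1, 5 TPM or more on average in whichever group was higher, and no overlap; those of other members were added after their values were seen. From each list, genes were named from the 4 with the smallest adjusted p. A gene of the TGF-beta target list is not reported here. Replicate numbers come from the sample titles. Departures from the group means of FIDAS-5 and JQ1 libraries of the same number correlated at 0.26, 0.102 and 0.422. Those of unlike number correlated at -0.35 to 0.179, a range that holds the 0.102. The 0.422 was that of replicate 3 and the 0.26 that of replicate 1. Both replicates followed GC content in both groups, in opposite directions. That the numbers pair those groups was therefore assumed for the block and was not tested apart from GC content. Alternatives were another pseudocount (0.1), no filter, a 5 TPM filter, median-of-ratios scaling, quantile normalization, protein-coding genes only, no mitochondrially encoded genes, only the 6 libraries compared, a replicate block, a trend in the moderation, removal of a lowess GC trend (span 0.3) with and without the block, and leaving out each library. Leaving out replicate 3 of both compounds, and the block within 6 libraries, were added after the data were seen.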

Additional observations from a re-analysis of the deposited data

How the results depend on the processing

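Members called with FIDAS-5 numbered 13 of 43, with 20 (17 higher, 3 lower) after removal of the GC trend, 23 (19 and 4) when the replicate block was added to that, 17 (15 and 2) under quantile normalization, and 9 to 16 when 1 library was left out. Genes called with FIDAS-5 numbered 2742, with 4419 and 4754 under those GC settings, 1887 higher and 1696 lower under quantile normalization, and 1639 to 3290 when 1 library was left out, the lowest being without vehicle replicate 3 (1639) and FIDAS-5 replicate 3 (1640). Genes called with JQ1 numbered 5219, and 3102 from the 6 libraries compared with the replicate block. Between JQ1 and FIDAS-5 they numbered 4726, with 2991 under the 5 TPM filter, which tests fewer genes, and 7145 after removal of the GC trend with the replicate block. Leaving out 1 library gave 19 to 25 members called with JQ1 and 21 to 29 between the compounds. The cause of the other shifts was not tested.

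The replicate block in the fit of all libraries called 2891 genes and 15 members with FIDAS-5, 5544 and 24 with JQ1, and 5052 and 27 between the compounds. It added TGFB1 and HSPG2 with FIDAS-5 and OCLN and TGFBR1 with JQ1. FIDAS-5 and vehicle libraries of the same number correlated at 0.037, 0.16 and 0.005, and JQ1 and vehicle libraries at -0.076, 0.033 and -0.002. These values do not show that the number pairs them.

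Calls against vehicle were lost under at least 1 setting for CDH2, SPARC, SDC4 and THBS1 with FIDAS-5 and for CDH1, SDC2, SDC4 and GJB1 with JQ1. Between the compounds they were lost for COL18A1, FN1, GJB1, HSPG2, LAMA5, TGFBR2 and THBS1. Without JQ1 replicate 3, calls were gained for SDC2, TGFBR1 and TGFBR2 with FIDAS-5, for LAMB1, OCLN and TGFBR1 with JQ1, and for CDH1, ITGA1, ITGA6, ITGB1 and TJP1 between the compounds. VIM was called between the compounds without FIDAS-5 replicate 2, and ITGAV without FIDAS-5 replicate 3 or JQ1 replicate 1. Median-of-ratios scaling, protein-coding genes only and removal of the GC trend each called VIM, ITGAV and TIMP3 lower with JQ1 than with FIDAS-5. No call changed sign. Of 982 differences per contrast over all settings, 39 with FIDAS-5, 15 with JQ1 and 8 between the compounds changed sign, none called in either fit. With the GC trend removed, with or without the block, these were for FIDAS-5 GJA1 (0.0013), GJB1 (-0.0886), ITGB1 (0.14), LAMC1 (0.0734), SMAD7 (-0.0328), SDC1 (-0.20) and GPC3 (0.0636), and for JQ1 ZEB1 (0.0637). For FIDAS-5, median-of-ratios scaling gave LAMC1 0.0378 and GPC3 0.0458, protein-coding genes only gave LAMC1 0.0401 and GPC3 0.0467 (and ITGA6 -0.0057 with JQ1), and quantile normalization gave SDC1 -0.0163, GPC3 0.0801 and, between the compounds, SDC4 0.0802. Without replicate 3 of both compounds they were GJA1 (0.14), ITGA1 (0.0052), ITGB1 (0.30) and LAMC1 (0.0082) for FIDAS-5, ITGAV (0.20), TGFBR2 (0.0103) and ZEB1 (0.0152) for JQ1, and SDC4 (0.0215) between them. Leaving out 1 library gave ranges for FIDAS-5 of -0.15 to 0.28 (CLDN1), -0.50 to 0.14 (GJA1), -0.0054 to 0.14 (GJB1), -0.08 to 0.11 (GPC3), -0.52 to 0.0052 (ITGA1), -0.38 to 0.30 (ITGB1), -0.12 to 0.074 (LAMC1), -0.21 to 0.41 (NID1) and -0.0217 to 0.11 (SDC1). For JQ1 they were -0.64 to 0.0781 (HSPG2), -0.21 to 0.092 (ITGA5), -0.25 to 0.44 (ITGA6), -0.52 to 0.20 (ITGAV), -0.42 to 0.0103 (TGFBR2) and -0.22 to 0.0152 (ZEB1), and between the compounds -0.0394 to 0.40 (LAMB1), -0.0329 to 0.52 (OCLN) and -0.0883 to 0.0555 (SDC4). TPM keeps no depth, so what depth limits is unknown. Removing mitochondrially encoded genes took out 2 symbols and tests little.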
